A study of Mus musculus with 5 samples.

Results

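The LGI proteins are secreted ligands and ADAM11, ADAM22 and ADAM23 are their receptors, and the genes of this small signalling system were followed in sciatic nerves of newborn mice with and without the transcription factor gene Ebf2. Genes were chosen by symbol, from Lgi1, Lgi2, Lgi3, Lgi4, Adam11, Adam22 and Adam23, using each probe set of the array whose platform annotation gives exactly 1 of these symbols. Of these 7 genes, 4 were present, with 1 probe set each among 10361 in all: the ligands Lgi1, Lgi2 and Lgi4 and the receptor Adam22. Lgi3, Adam11 and Adam23 were not analysed here. The nerves came from pups at postnatal day 2 on a C57Bl6N background, born to heterozygous parents. The 2 Ebf2-/- (KO) pools, numbered 2 and 4, and the 3 Ebf2+/+ wild-type (WT) pools, numbered 1, 9 and 11, held 12 nerves each, and each pool was measured on 1 array. The labels give neither the number of animals in a pool nor what the Ebf2 allele is missing, and the knockout is not restricted to any cell type in the labels. Levels are log2 values, and a log2 fold change is KO minus WT.

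LGI proteins carry leucine-rich repeats and a beta-propeller domain, and they act outside the cell by binding ADAM proteins that have lost their protease activity. In the peripheral nerve the best studied pair is LGI4 and ADAM22: Schwann cells secrete LGI4, and mice without it, such as claw paw mutants, have Schwann cells that are slow to sort axons and to form myelin. In the brain LGI1 holds ADAM22 and ADAM23 in complexes with AMPA receptors, voltage-gated potassium channels of the Kv1 family and scaffold proteins, and human mutations in LGI1 cause an inherited epilepsy. Mutation of LGI2 causes a juvenile epilepsy in dogs.

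The promoter of Lgi2 is shown because Lgi2 was the member that differed most between the genotypes, and that of Adam22 because it encodes the measured receptor. Both are the 250 bases before the annotated start, from RefSeq on build GRCm38.p6, read 5′ to 3′ on the gene's strand. That of Lgi2 lies at chr5:52566307-52566556 on the minus strand and that of Adam22 at chr5:8368161-8368410 on the minus strand. Capitals mark CCCNNGGG, the half-sites of the palindrome that early B cell factors recognise.
Lgi2: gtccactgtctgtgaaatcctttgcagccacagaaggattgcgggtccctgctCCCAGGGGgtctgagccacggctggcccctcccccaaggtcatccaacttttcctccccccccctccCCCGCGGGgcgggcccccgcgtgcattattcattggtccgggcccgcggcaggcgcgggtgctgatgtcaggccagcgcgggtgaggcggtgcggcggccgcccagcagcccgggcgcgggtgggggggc
Adam22: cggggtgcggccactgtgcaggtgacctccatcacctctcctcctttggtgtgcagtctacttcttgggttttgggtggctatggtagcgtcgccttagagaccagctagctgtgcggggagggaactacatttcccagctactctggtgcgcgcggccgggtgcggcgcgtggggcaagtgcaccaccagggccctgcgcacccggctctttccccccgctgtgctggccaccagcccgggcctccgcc
Lgi2 had 2 matches to these letters, starting 197 and 130 bases before the start, and Adam22 and Lgi1 had 0. Adam23, whose level was not analysed here, had 1 match, starting 193 bases before the start. The same letters were present in 11.82% of 32851 RefSeq promoters of this length, and in 31.15% of the 3037 promoters with a GC content of at least 70%. The Lgi2 promoter has a GC content of 72.4%, against 66.8% for Adam22, 52.4% for Lgi1 and 70.4% for Adam23. The EGR motif GCGTGGGCG, which was found in 0.54% of all promoters, had 0 matches in these 4 windows. Both strands were searched. A match describes the letters and does not show binding.

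The labels were checked on Ebf2, which had log2 values of 9.25 and 8.75 in KO pools 2 and 4 and of 11.55, 11.14 and 11.40 in WT pools 1, 9 and 11. Schwann cell markers were present in all pools, and those named here were chosen after their values were seen. Sox10 lay between 11.24 and 11.64 in the KO pools and between 11.64 and 11.65 in the WT pools. Other markers differed more, with Erbb3 and Cdh19 at log2 fold changes of -0.47 and -0.56 and Cdh2 at 0.36. For these the groups did not overlap, as in 30.8% of all probe sets, and none had an adjusted p below 0.05 (limma). Of the 10 measured Schwann lineage genes of 16, 6 were above 0 and 4 below, with a median log2 fold change of 0.04. A gene was called at adjusted p below 0.05 in limma, which held for 70 probe sets, or 0.676% of those tested, with 36 higher and 34 lower in KO. The WT pools were not alike. The 14 measured keratinocyte genes of 16 averaged 7.27 and 7.54 in KO pools 2 and 4, against 7.24, 9.01 and 8.36 in WT pools 1, 9 and 11. The 22 skeletal muscle genes, all of them measured, averaged 10.14 and 10.36 in the KO pools, against 9.68, 11.04 and 10.87 in the same WT pools. WT pools 9 and 11 thus stood apart from WT pool 1, and each member is also given against WT pool 1 alone.

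Lgi2 rose in the KO pools and was the 1 member of 4 called higher, while 0 were called lower and 3 did not pass. At an unadjusted p below 0.05 in limma the members also gave 1 higher and 0 lower, where 14.3% of all probe sets passed in either direction. At adjusted p the background share called higher was 0.347% of all probe sets and the share called lower 0.328%.

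The ligand gene Lgi2 had log2 values of 9.87 and 9.96 in KO pools 2 and 4, against 9.24, 8.48 and 8.37 in WT pools 1, 9 and 11. All KO values lay above all WT values, by 0.63 at the closest, and the KO pools were within 0.086 of each other while the WT pools spanned 0.87. Such a complete separation with KO higher occurred in 17.5% of all probe sets. The mean was 9.92 ± 0.06 (SD, n = 2) in KO and 8.70 ± 0.47 (SD, n = 3) in WT, a 2.33-fold higher level (log2 fold change 1.22, SE 0.21, 95% interval 0.77 to 1.66, adjusted p = 0.0101, limma). By size and direction this was the difference ranked 13 among the 10361 probe sets.

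The Lgi2 difference depended in size on which WT pools it was set against. It was 1.49 on the log2 scale against WT pools 9 and 11 and 0.67, or 1.59-fold, against WT pool 1 alone. Without KO pools 2 and 4 in turn it was 1.26 and 1.18. In these last 3 settings a group holds 1 pool and limma called 0 of 10361 probe sets, Ebf2 included, so the values stand without a test. The difference did not pass without WT pool 1 (log2 fold change 1.49, adjusted p = 0.0657, limma) or without WT pool 9 (1.11, adjusted p = 0.831), and it passed without WT pool 11 (1.06, adjusted p = 0.00691). After median centring and quantile normalisation it was 1.28 and 1.25 and did not pass (adjusted p = 0.337 and 0.323, limma), where Ebf2 was the 1 probe set called. The part of the skin and muscle genes, which were highest in the 2 WT pools with the lowest Lgi2, was not tested.

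**Figure D1:**
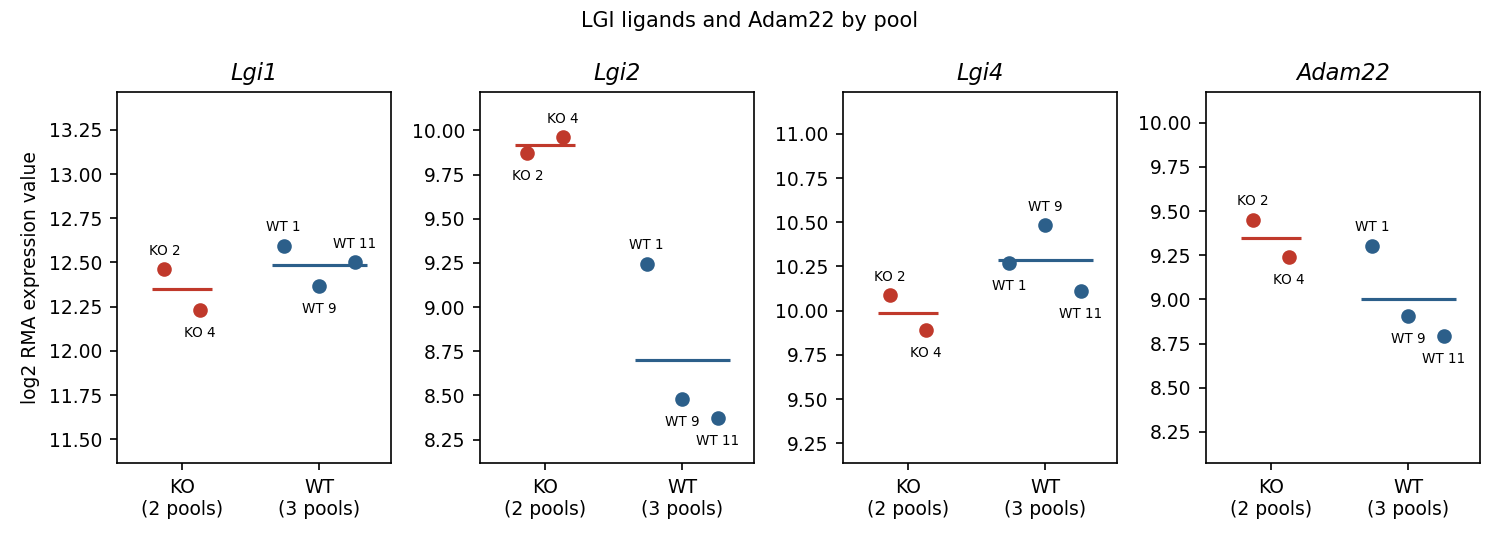
Log2 RMA expression values (vertical axes, each spanning the same number of log2 units) of Lgi1, Lgi2, Lgi4 and Adam22 by genotype, with a point for each pool and a line at each group mean. The KO pools of Lgi2, at 9.87 and 9.96, sit above all 3 WT pools, while the pools of Lgi1 and Adam22 overlap between the genotypes.

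Lgi4, the ligand that Schwann cells need for timely myelination, did not pass. It had log2 values of 10.09 and 9.89 in KO pools 2 and 4, against 10.27, 10.48 and 10.11 in WT pools 1, 9 and 11. The KO values lay below all WT values, but by only 0.025 between KO pool 2 and WT pool 11, and 13.3% of all probe sets were separated in this direction. The mean was 9.99 ± 0.14 (SD, n = 2) in KO and 10.29 ± 0.19 (SD, n = 3) in WT (log2 fold change -0.30, SE 0.17, 95% interval -0.66 to 0.06, adjusted p = 0.445, limma). The value was -0.28 against WT pool 1 alone and -0.31 against WT pools 9 and 11. The part of skin and muscle genes in it was not tested. In these pooled nerves fewer cells of a type and less RNA per cell cannot be told apart.

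Genes of myelin, which Schwann cells also make, gave calls where Lgi4 did not. Of 19 genes of myelin and the Schwann cell membrane 12 were measured, of which 6 fell, 0 rose and 6 did not pass, where 0.328% of all probe sets were called lower. The median log2 fold change was -0.75 beside 0.00 over all probe sets. Fewer passed in some settings: 4 without WT pool 11, and 0 after median centring or quantile normalisation, without moderation or without any other pool, with a median of -0.50 against WT pool 1 alone. The difference between this list and Lgi4 was not tested. The same 12 genes averaged 10.18 and 9.91 in KO pools 2 and 4, against 10.61, 11.05 and 10.77 in WT pools 1, 9 and 11. Lgi4 and this list shared their highest pool, WT pool 9, and their lowest, KO pool 4. The array median was also lowest in KO pool 4, at 8.93. It was 9.11 in KO pool 2 and 9.11, 9.09 and 9.04 in WT pools 1, 9 and 11. After median centring the Lgi4 log2 fold change was -0.24, and the part of this offset in the shared order was not tested. The 10 measured Schwann lineage genes of 16 gave 0 calls in either direction (limma, with 0 higher and 2 lower at unadjusted p below 0.05, which 14.3% of all probe sets passed) and a median of 0.04.

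Lgi1, the ligand known from the epilepsy gene in people, overlapped between the genotypes. It had log2 values of 12.46 and 12.23 in KO pools 2 and 4, against 12.60, 12.37 and 12.50 in WT pools 1, 9 and 11. The KO mean was 12.35 ± 0.16 (SD, n = 2) and the WT mean 12.49 ± 0.12 (SD, n = 3), with a log2 fold change of -0.14 (SE 0.17, 95% interval -0.50 to 0.22, adjusted p = 0.699, limma). The interval leaves room for a change in either direction. Without KO pool 4 the value was -0.03, and against WT pool 1 alone -0.25.

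Adam22, the receptor gene, had log2 values of 9.45 and 9.24 in KO pools 2 and 4, against 9.31, 8.91 and 8.80 in WT pools 1, 9 and 11. WT pool 1 lay between the KO pools, so the groups overlapped, and WT pools 9 and 11 were lower. The mean was 9.35 ± 0.15 (SD, n = 2) in KO and 9.00 ± 0.27 (SD, n = 3) in WT (log2 fold change 0.34, SE 0.18, 95% interval -0.04 to 0.73, adjusted p = 0.401, limma). Against WT pools 9 and 11 the value was 0.50 on the log2 scale, while against WT pool 1 alone it was only 0.04, or 1.03-fold. Lgi2 and Adam22 thus shared an order in which WT pools 9 and 11 had the lowest values, and Lgi2 alone of the pair separated WT pool 1 from the KO pools.

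The genotype differences of the members were also set against each other within pools, since levels of different probe sets cannot be compared. Whether different probe sets report changes on the same scale was not tested. Over 6 pairs of members, the change in Lgi2 exceeded that in Lgi4 by 1.52, that in Lgi1 by 1.36 and that in Adam22 by 0.87 on the log2 scale. Each of these 3 differences had an exact permutation p = 0.1 (two-sided, 10 assignments of the 5 pools, adjusted p = 0.2 over the 6 pairs), which is the smallest this design allows. The change in Adam22 exceeded that in Lgi4 by 0.64 and that in Lgi1 by 0.48, with an exact permutation p = 0.2 each (adjusted p = 0.24). Lgi1 and Lgi4 differed by 0.16 in their change (exact permutation p = 0.7). No pair can pass 0.05 with 2 pools against 3.

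**Figure D2:**
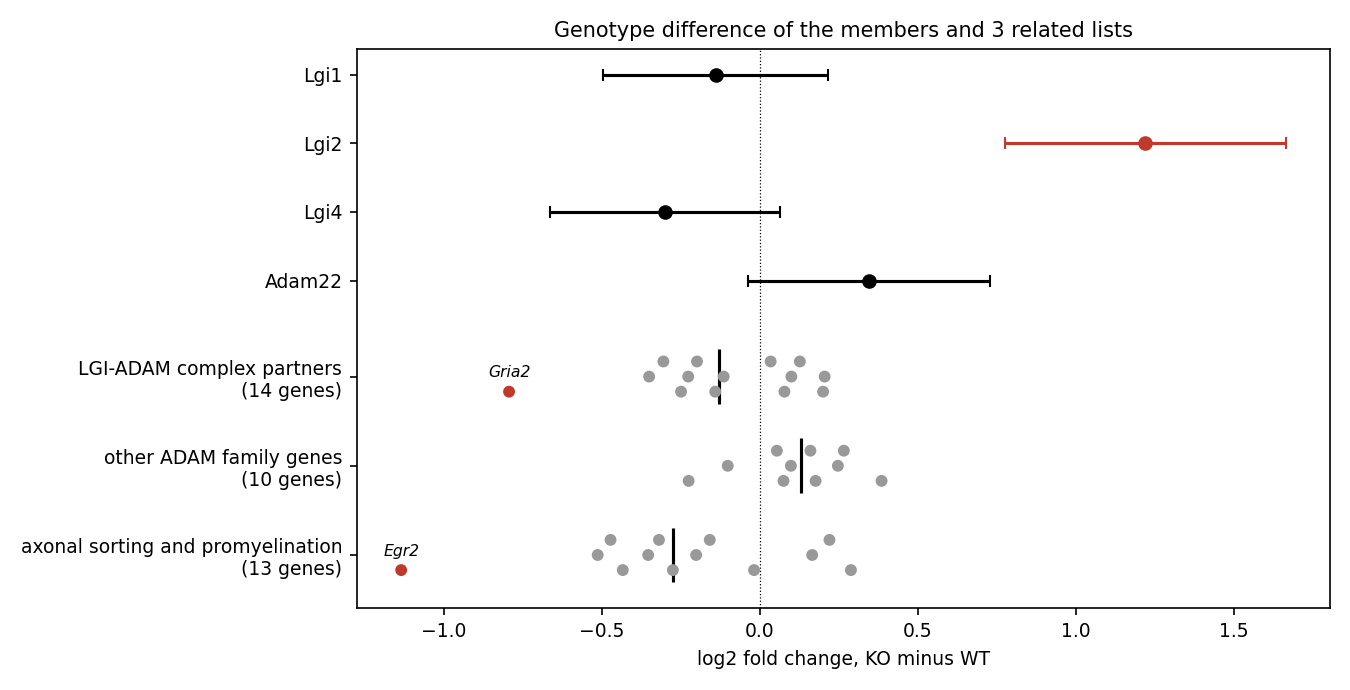
Log2 fold change, KO minus WT (horizontal axis), of the 4 members with 95% intervals, and of the measured genes of 3 related lists, a point per gene with a line at each list's median. Red marks adjusted p below 0.05, which held for Lgi2 at 1.22, Gria2 at -0.79 and Egr2 at -1.13.

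The genes whose pool profile was nearest to that of each member were taken from 9406 named genes, by the root-mean-square difference of log2 values centred on the mean of the 5 pools. For Lgi2 these were P4ha3, a prolyl hydroxylase subunit that acts on collagen (difference 0.126), Tgfb2, a ligand of the TGF-beta family (0.142), Glt8d2, a glycosyltransferase-like gene (0.142), and Pdlim1, a PDZ and LIM domain gene (0.158), where the median over all genes was 0.695. All 4 have the low values in WT pools 9 and 11 that Lgi2 has: Tgfb2 had 10.26 and 10.59 in the KO pools and 9.85, 9.13 and 9.21 in WT pools 1, 9 and 11. Their log2 fold changes were 1.02 (P4ha3), 1.03 (Tgfb2), 1.10 (Glt8d2) and 0.99 (Pdlim1), and against WT pool 1 alone 0.41, 0.57, 0.79 and 0.62, over 1.5 times smaller for P4ha3, Tgfb2 and Pdlim1. These likenesses describe 5 pools that also carry the genotype, so a gene with a similar difference must come close.

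The nearest genes of the other members, chosen for likeness to members that did not pass, did not pass either. For Adam22 the nearest was Tie1, a receptor of endothelial cells (difference 0.0224), with 10.06 and 9.87 in the KO pools and 9.91, 9.56 and 9.38 in WT pools 1, 9 and 11, followed by Zc2hc1a, 6330407A03Rik and Pcdhb21, a protocadherin. The 14 measured endothelial and mural cell genes of 15 averaged 10.96 and 10.81 in the KO pools, against 10.84, 10.39 and 10.28 in WT pools 1, 9 and 11. Adam22 and Lgi2 were also lowest in WT pools 9 and 11. So were the 8 measured fibroblast genes of 12, which averaged 11.41 and 11.36 in the KO pools, against 11.33, 11.11 and 11.17. The 10 measured perineurial genes of 13 averaged 10.64 and 10.70, against 10.45, 10.23 and 10.44. Keratinocyte and skeletal muscle genes were instead highest in WT pools 9 and 11. The part of vascular, fibroblast or perineurial cells in the Adam22 and Lgi2 values was not tested. For Lgi4 the nearest were Fbh1, a DNA helicase (0.0225), Trappc12, a vesicle tethering factor, Taz, which here is the tafazzin gene of mitochondrial lipid remodelling, and Smarcb1, a chromatin remodelling subunit. For Lgi1 they were Tmem209 (0.0131), BC147527, Sec22c, a vesicle trafficking gene, and Tatdn3. These 12 genes had log2 fold changes from -0.33 (Fbh1) to 0.41 (6330407A03Rik), with adjusted p of at least 0.307 (limma).

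**Figure D3:**
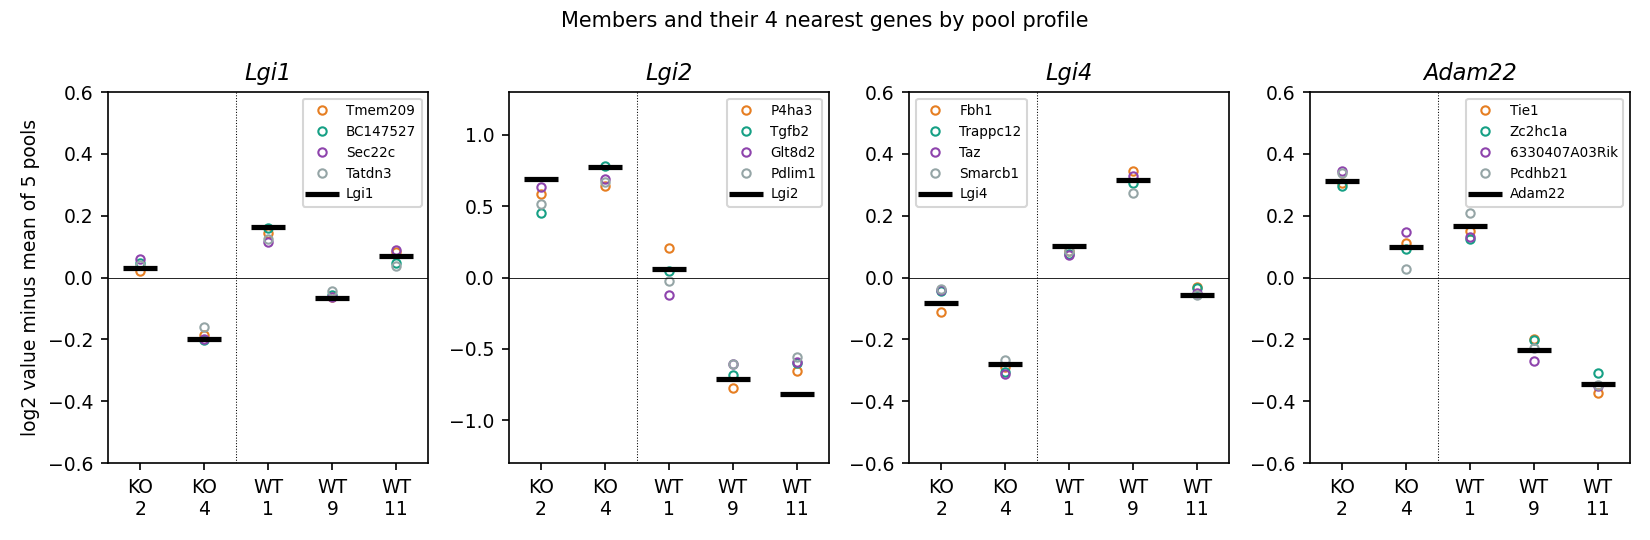
Log2 values minus the mean of the 5 pools (vertical axes, wider for Lgi2) in KO pools 2 and 4 and WT pools 1, 9 and 11, with a black bar for each member and open circles for its 4 nearest genes. WT pool 1 lies between the KO pools and WT pools 9 and 11 for Lgi2 and each of its nearest genes.

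The genes of proteins that LGI and ADAM22 or ADAM23 complexes hold at synapses and along axons showed 1 fall in RNA among those measured. Of 29 genes in this list 14 were measured, with 0 higher, 1 lower and 13 that did not pass, where 0.328% of all probe sets were called lower. The median log2 fold change was -0.13 beside 0.00 over all probe sets. The fall was in Gria2, which encodes an AMPA receptor subunit: it had 9.28 and 8.78 in KO pools 2 and 4, against 9.88, 9.89 and 9.70 in WT pools 1, 9 and 11. The groups did not overlap, as in 13.3% of all probe sets with KO lower, and the log2 fold change was -0.79 (SE 0.18, adjusted p = 0.0445, limma). It was -0.55 without KO pool 4 and -0.85 against WT pool 1 alone, settings that called 0 probe sets in all, and Gria2 passed in 4 of 13 alternatives.

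The genes of the juxtaparanode, the stretch of axon beside the node where Kv1 channels gather, were chosen from this list after their values were seen, and none passed (lowest adjusted p = 0.409 for Kcna6, limma). The channel subunit gene Kcna1 had 12.06 and 11.93 in the KO pools, against 12.07, 12.31 and 12.30 in WT pools 1, 9 and 11 (log2 fold change -0.23). Kcna6 was at -0.35, Kcna2 at -0.14, Kcna4 at 0.08, and the auxiliary subunits Kcnab2 and Kcnab1 at -0.20 and 0.20. The adhesion genes Cntnap2 and Cntn2, which anchor the channels, were at -0.25 and -0.11, and Epb41l3, for the membrane skeleton protein 4.1B, at 0.20. The scaffold genes Dlg1 and Dlg3 of the PSD-95 family were at 0.10 and 0.13. In the 14 measured neuronal genes of 18, a sign of axonal or ganglion RNA, the mean was 7.88 and 8.08 in the KO pools, against 7.85, 8.93 and 7.94 in WT pools 1, 9 and 11. Of the genes just named, Cntnap2, Cntn2, Kcnab2 and Kcna1 had their highest value in WT pool 9, while Kcna4, Dlg3 and Epb41l3 had their lowest there, and the part of neuronal RNA in these values was not tested.

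Other ADAM genes gave 0 calls. Of 31 in the list 10 were measured, 8 with a value above 0 and 2 below, with a median log2 fold change of 0.13 beside 0.00 over all probe sets, and at an unadjusted p below 0.05 (limma) 1 was higher and 0 were lower, beside 14.3% of all probe sets in either direction. The largest was Adam15, an adhesive membrane ADAM, which had 10.92 and 11.10 in KO pools 2 and 4, against 10.74, 10.57 and 10.56 in WT pools 1, 9 and 11 (log2 fold change 0.38, SE 0.17, adjusted p = 0.299, limma). Adam12, a protease of mesenchymal cells, was at 0.27 and Adam5 at 0.25. Adam17, a sheddase that limits myelination by cleaving neuregulin, was chosen after its value was seen and was at 0.05, with 11.59 and 11.63 in the KO pools against 11.64, 11.59 and 11.44 in the WT pools.

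Genes that act, like Lgi4, when Schwann cells sort axons and enter the promyelinating stage had Egr2 as their 1 call. Of 29 such genes 13 were measured, with 0 higher, 1 lower and 12 that did not pass, where 0.328% of all probe sets were called lower. The median log2 fold change was -0.28 beside 0.00 over all probe sets, with 3 genes above 0 and 10 below. Egr2, the transcription factor that drives myelin genes, had 10.72 and 9.75 in KO pools 2 and 4, against 11.19, 11.53 and 11.40 in WT pools 1, 9 and 11 (log2 fold change -1.13, SE 0.22, adjusted p = 0.0181, limma). It was at -0.65 without KO pool 4 and passed in 4 of 13 alternatives. At an unadjusted p below 0.05 (limma) 0 of the 13 genes were higher and 4 were lower, Egr2 included, beside 14.3% of all probe sets in either direction. The other 3 were Pou3f2 at -0.51, Erbb3 at -0.47 and Pou3f1 at -0.43, named after their values were seen. Adgrg6, an adhesion receptor gene of this list, was also chosen after its value was seen and was at -0.16. It had 12.06 and 11.67 in the KO pools against 12.09, 11.99 and 11.98 in the WT pools. The medians of the list without KO pool 2 and without KO pool 4 were -0.47 and 0.00.

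**Figure D4:**
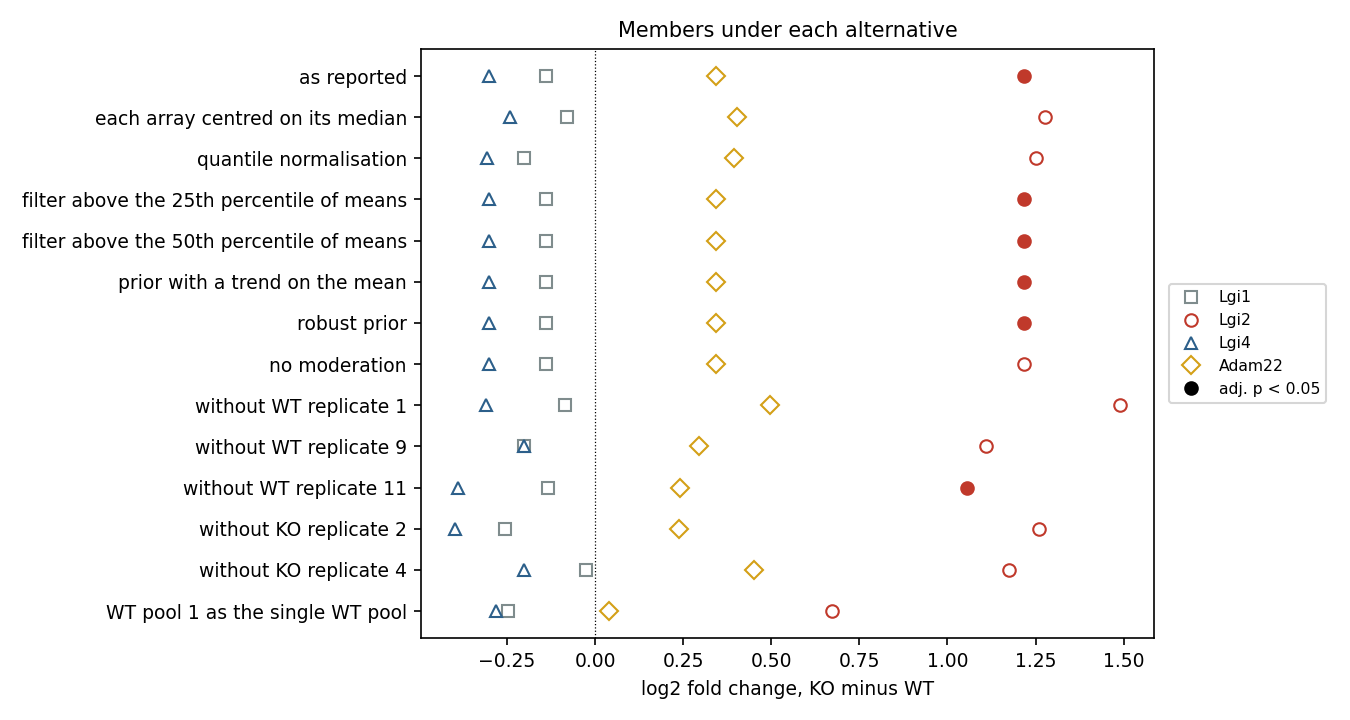
Log2 fold change, KO minus WT (horizontal axis), of Lgi1, Lgi2, Lgi4 and Adam22 as reported and under 13 alternatives (rows), where filled symbols mark adjusted p below 0.05. Each member keeps its direction in all rows, from 0.67 to 1.49 for Lgi2 and from 0.04 to 0.50 for Adam22, and only Lgi2 has filled symbols.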

How the data were processed

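Each pool of sciatic nerves was hybridised to 1 Affymetrix whole-transcript array. The authors deposited log2 values from RMA, according to the submitters' processing notes, a method that removes background, equalises arrays and combines probes. Neither version nor options of RMA are given. Every probe set of the 10361 had a gap of at least 0.175 between its lowest value and the fourth in rank, as a filter on spread would leave, though none is described. Probe sets were named from the platform annotation. Of the 9411 with 1 symbol, 9400 matched RefSeq (GRCm38.p6) by gene identifier.

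The genotypes were compared with limma 3.58.1 in R 4.3.3 (lmFit, eBayes, no covariates), two-sided, with Benjamini-Hochberg adjustment over all probe sets, after the fit was tested on simulated data. It had 3 residual and 17.4 prior degrees of freedom, and a spread filter would raise the latter figure. The number of arrays limits the precision, and the spread among pools can be partly technical. With 17.4 prior against 3 residual degrees of freedom, most of the spread behind each interval and p-value is borrowed from other probe sets. An interval can thus be narrower than the gene's own 5 pools would give. The members and gene lists were chosen with earlier results of these data known. The text names every member, the 4 nearest profiles of each, and in each related list the called genes or else the 3 largest changes, and any other gene is marked as chosen later. The list names Taz (tafazzin here), Gpr126 and Ugt8 were dropped as wrong or duplicate names. The alternatives covered normalisation, dim probe sets, the variance prior and left-out pools. No batch is given in the labels.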

Additional observations from a re-analysis of the deposited data

How the results depend on the processing

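All 4 members kept their direction in 13 of 13 alternatives, from 0.67 to 1.49 for Lgi2, 0.04 to 0.50 for Adam22, -0.40 to -0.20 for Lgi4 and -0.25 to -0.03 for Lgi1. Lgi2 passed in 5 of 13, with adjusted p from 0.000289 to 0.857 in limma. It was at 1.28 after median centring, 1.25 after quantile normalisation, 1.22 without moderation and 0.67 against WT pool 1 alone, and passed in none of these 4, so that the members called higher were 0 there. With each pool left out in turn Lgi2 ranged from 1.06 to 1.49 and the members called higher from 0 to 1. Adam22, Lgi4 and Lgi1 passed in 0 of 13, and members called lower stayed at 0, also at unadjusted p below 0.05 (limma). Members higher at unadjusted p were 1 as reported and 2 after median centring, after quantile normalisation and without WT pool 1, Adam22 being the second. The counts of myelin genes across settings were added after seeing the data. The probe sets called were 70 as reported, 287 above the 50th percentile of means, 158 with a trended prior, 148 with a robust prior, 1 after median centring or quantile normalisation and 0 without moderation (498 at unadjusted p below 0.05, ordinary linear model) or against WT pool 1 alone (127, limma). With pools left out they ranged from 0 to 105. Of the nearest genes, Sec22c turned to 0.013 and Tatdn3 to 0.00033 without KO pool 4, and Pcdhb21 to -0.026 against WT pool 1 alone. The causes were not tested. No paired analysis was possible because the pools of the genotypes share no number. The 5 arrays limit what differences could be detected, and signal over background is not given in the table.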
